A study of Mus with 35 samples.

Results

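A set of 10 genes that mark subtypes of inhibitory interneurons were followed in mouse brain RNA: Sst, Npy, Vip, Cck, Pvalb, Calb2, Reln, Lamp5, Htr3a and Nos1. They were taken by symbol from the deposited expression table, where each of the 10 had a row among 55573 rows. Each averaged 1 TPM or more (transcript abundance, a level scaled for transcript length and library total), the filter set for testing. Expression was given for 35 libraries of male C57BL/6J mice in 3 cohorts. Brains of P209L litters were collected at 8 weeks of age or at 3 weeks, and those of R206W litters at 3 weeks only, which gives the 3 cohorts. Each held wild-type (WT) littermates and mice hemizygous for that substitution in Hnrnph2, an X-linked gene for an RNA-binding protein. Every mouse, controls included, had received 1 injection into the brain ventricles on postnatal days 2 to 4, of 30 µg of either a control antisense oligonucleotide (ASO) or an ASO against Hnrnph2. These combinations made 12 groups of 3 libraries, apart from P209L mice with the Hnrnph2 ASO at 3 weeks, which had 2. The titles give the 35 libraries 35 distinct names, and p-values measure the spread between these libraries.

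Cortical interneurons release GABA and fall into classes that are told apart by the peptides, calcium-binding proteins and receptors they make. Pvalb marks fast-spiking basket and chandelier cells, Sst marks dendrite-targeting cells, and Vip marks cells that mainly inhibit other interneurons. The classes are not closed: Npy and Nos1 label part of the Sst class and neurogliaform cells, Calb2 part of the Vip class, and Cck, Reln and Lamp5 are also made by excitatory or other neurons. Outside cortex, Pvalb is made by Purkinje cells and Calb2 by cerebellar granule and olfactory bulb cells.

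The ASO lowered its target in these libraries: Hnrnph2 (X:134601179-134607060, build mm10/GRCm38) lay between 88.2 and 117 TPM in the 18 libraries with the control ASO and between 6.95 and 26.7 TPM in the 17 with the Hnrnph2 ASO. The labels name the whole brain in one place and dissected cortex in another. Summed markers of regions outside cortex were present in all libraries: 7 markers of cerebellar granule cells summed to 279 to 829 TPM, 6 of Purkinje cells to 574 to 1257 TPM, and 9 of hypothalamus to 70.9 to 254 TPM. Not every marker was high or particular to its region. In the Purkinje list Pcp2 lay at 165 to 521 TPM, while Calb1 is also counted here among interneuron markers. In the hypothalamic list Nr5a1 did not exceed 0.56 TPM. Inhibitory neurons of several regions may contribute to the values, and in such tissue RNA fewer cells of a type and less RNA per cell cannot be told apart. Some libraries stood apart, among them the following. Replicate 3 of WT with the Hnrnph2 ASO in the P209L cohort at 3 weeks had the highest Sst (545 TPM) and Npy (303 TPM) and the lowest Lamp5 (88.6 TPM) of all 35, with the highest sum of striatal markers (928 TPM). Replicate 3 of WT with the control ASO at 8 weeks had the lowest Calb2 (132 TPM), with the lowest sums of hypothalamic (70.9 TPM) and of midbrain and hindbrain markers (5.33 TPM). Replicate 2 of P209L with the Hnrnph2 ASO at 3 weeks had the highest Vip (30.0 TPM) and Htr3a (8.48 TPM).

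The peptide genes included the most abundant members. Cck (9:121489824-121495694), which encodes cholecystokinin, averaged 503 TPM over the 35 libraries (410 to 656), and Sst (16:23889573-23891342), which encodes somatostatin, 358 TPM (282 to 545). Npy (6:49822710-49829507), for neuropeptide Y, averaged 182 TPM (141 to 303). Vip (10:5639193-5647617), for vasoactive intestinal peptide, was much lower at 21.6 TPM (14.7 to 30.0). The calcium-binding proteins calretinin and parvalbumin were close to each other: Calb2 (8:110142526-110168212) averaged 227 TPM (132 to 341) and Pvalb (15:78191112-78206400) 225 TPM (161 to 320).

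Of the remaining members, Lamp5 (2:136052025-136069917), a lysosome-associated membrane protein of neurogliaform cells and of some excitatory neurons, averaged 151 TPM (88.6 to 182). Reln (5:21884454-22344705), the secreted protein reelin, averaged 66.2 TPM (51.2 to 89.3). Nos1 (5:117866839-117958840), neuronal nitric oxide synthase, averaged 19.4 TPM (14.8 to 24.9). Htr3a (9:48899213-48911152), a subunit of the serotonin-gated ion channel, was the lowest at 4.62 TPM (3.27 to 8.48). Its partner subunit Htr3b did not exceed 0.08 TPM in any library.

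Some neighbours in this order were not separated within libraries. Calb2 was above Pvalb in 21 of 35 libraries, Vip above Nos1 in 24 and Pvalb above Npy in 27. Cck exceeded Sst in 34 libraries, Sst exceeded Calb2 in 33 and Npy exceeded Lamp5 in 31. Lamp5 over Reln, Reln over Vip, and Nos1 over Htr3a held in all 35. The spread differed between members as well: the coefficient of variation over all libraries was 23.8% for Htr3a and 23.6% for Calb2, and 9.05% for Cck.

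**Figure D1:**
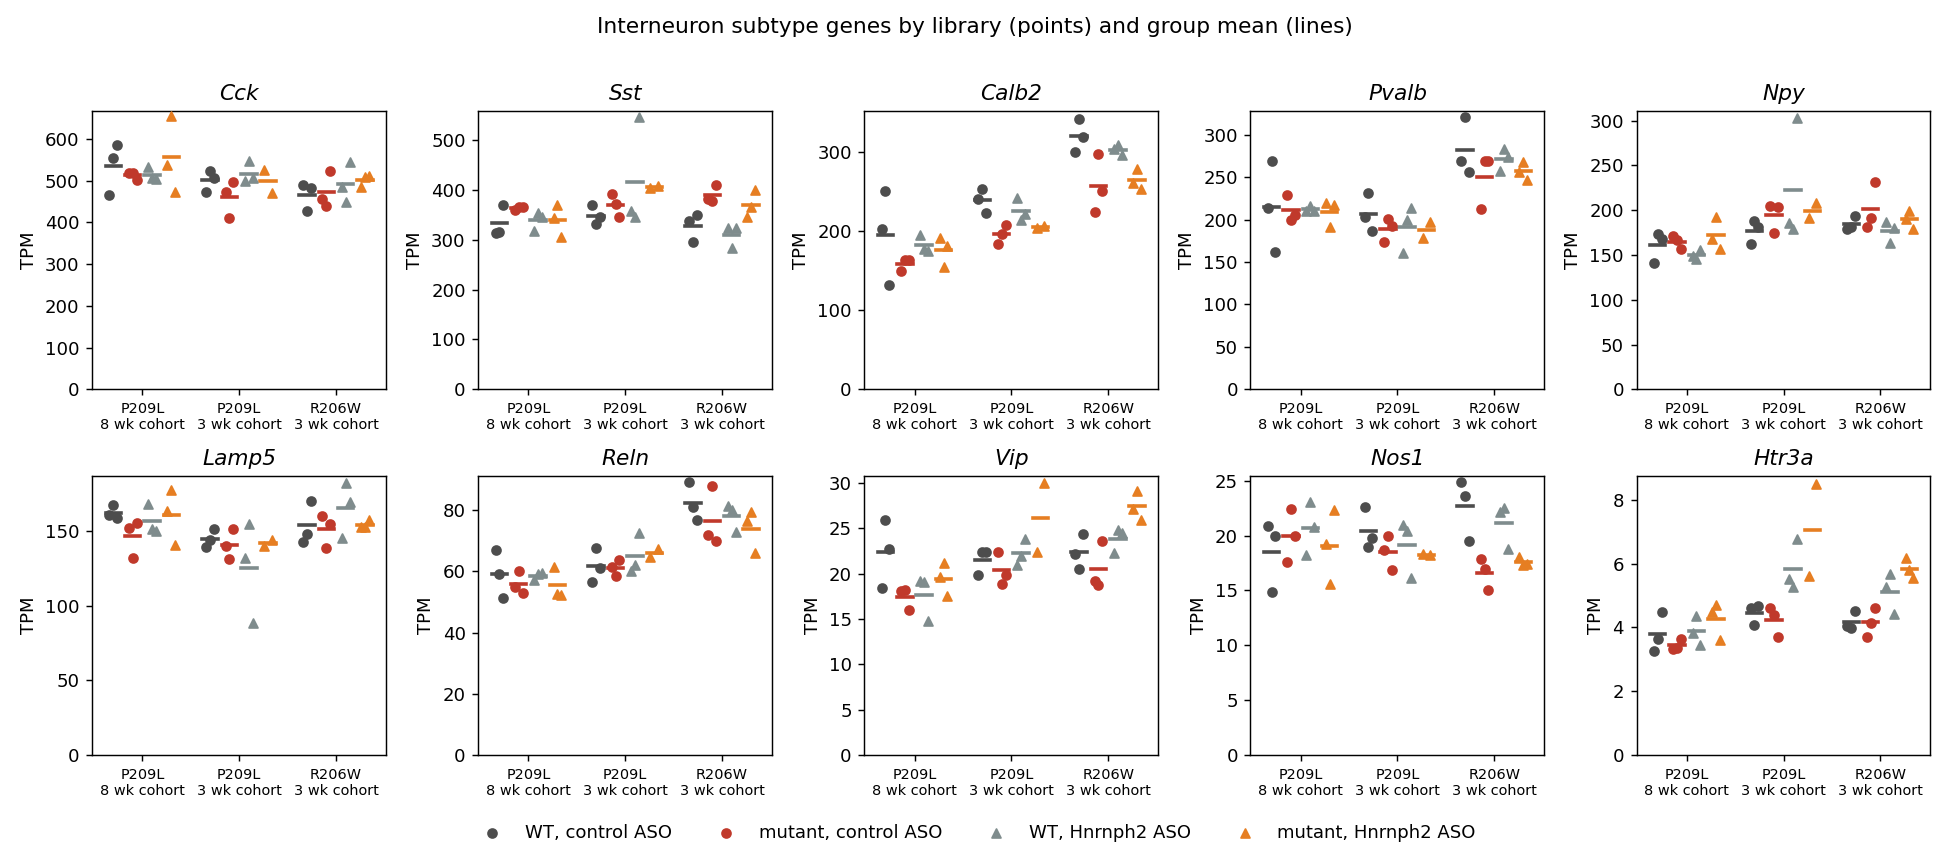
TPM of the 10 genes in each of 35 libraries, by cohort, genotype (WT or mutant) and ASO; points are libraries, short lines are group means, and every vertical axis starts at 0. Calb2 lies highest in the R206W cohort, and Htr3a of mutants with the Hnrnph2 ASO reaches 8.48 TPM against at most 4.62 TPM in mutants with the control ASO. The next highest mutant library with the Hnrnph2 ASO has 6.18 TPM, and WT with that ASO reaches 6.77 TPM.

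The effect of the mutation was read with the control ASO, as mutant minus WT averaged over the 3 cohorts. Calb2 was the only member called, and it was lower in mutants. By limma on log2(TPM + 1), with Benjamini-Hochberg adjustment over all genes tested and a call at an adjusted p under 0.05, 1 of 10 members was called, where 4.28% of all 16556 genes were called, 2.55% higher and 1.73% lower. No member was called higher, and 3 of 10, Calb2, Vip and Sst, had an unadjusted p under 0.05. The shares of all genes given here and below count adjusted calls, so they are no background for counts at an unadjusted p.

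At 8 weeks Calb2 was 202, 250 and 132 TPM in WT and 149, 163 and 163 TPM in P209L mice. In the P209L cohort at 3 weeks it was 240, 253 and 222 TPM in WT and 183, 196 and 208 TPM in P209L mice. In the R206W cohort it was 299, 341 and 318 TPM in WT and 224, 297 and 250 TPM in R206W mice. The mutants lay below every WT library in both 3-week cohorts, while at 8 weeks the lowest WT library lay below all 3 mutants. The average log2 difference was -0.28 (SE 0.08, adjusted p = 0.0302), and an exact two-sided permutation test within cohorts gave an unadjusted p of 0.011. Within a cohort the difference was -0.25 at 8 weeks, -0.28 in the P209L cohort at 3 weeks and -0.32 in the R206W cohort, with adjusted p of 0.901, 0.245 and 0.299. Without a replicate block, no cohort alone gave a member a call by limma, where 0.170%, 0.133% and 0.133% of its genes were called and 1, 1 and 3 members had an unadjusted p under 0.05. With the replicate number as a block, Calb2 was called in the R206W cohort (-0.32, SE 0.06, adjusted p = 0.0482), where 1.27% of genes were then called. The labels do not say that a replicate number marks a shared litter or day. Same-numbered libraries of that comparison correlated at only 0.0114 to 0.135 in their deviations from the group mean.

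Cerebellar granule cell markers were also lower in the mutants. Of 7 such markers 5 were called lower and none higher, with a median log2 difference of -0.32 against 0.0066 for all genes; Gabra6, a GABA receptor subunit of granule cells, fell by 0.58 (adjusted p = 0.00123). Their summed level in mutants against WT was 386 to 457 against 401 to 519 TPM at 8 weeks, 369 to 424 against 482 to 524 TPM in the P209L cohort at 3 weeks, and 455 to 540 against 606 to 829 TPM in the R206W cohort. All 7 were detected in every library. With their mean as a covariate the Calb2 difference was -0.15 (adjusted p = 0.48). The sums were apart between genotypes in both cohorts at 3 weeks, so that fit cannot fully separate the markers from the genotype. Olfactory bulb markers had a median of -0.35, with 1 of 6 called lower (Eomes, -0.67, adjusted p = 0.0379), and the part of that region was not tested. Without the filter on low genes the Calb2 difference had an adjusted p of 0.069, and relative to the mean of Gad1, Gad2 and Slc32a1 it was -0.33 (adjusted p = 0.158).

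The Calb2 call also depended on which libraries were in the fit. It was lost without any 1 of 9 of the 18 libraries, at adjusted p-values up to 0.0696 and with a log2 difference between -0.37 and -0.22 over all 18 omissions. At 8 weeks these were replicates 1 and 2 of WT and replicate 1 of P209L. In the P209L cohort at 3 weeks they were replicate 2 of WT and replicates 1 and 2 of P209L, and in the R206W cohort replicate 2 of WT and replicates 1 and 3 of R206W. Without the 8-week WT library that stood apart, replicate 3, the call was kept at -0.37 (adjusted p = 8.17e-05).

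The remaining 9 members did not pass with the mutation. Among the peptide genes Sst had a log2 difference of 0.16 (SE 0.07, adjusted p = 0.185), Npy 0.10, Cck -0.05 and Vip -0.18 (SE 0.07, adjusted p = 0.149). The exact permutation test gave unadjusted p-values of 0.005 for Sst and 0.0257 for Vip. In the R206W cohort Sst was 338, 294 and 350 TPM in WT and 382, 378 and 409 TPM in R206W mice, so the groups did not overlap there, whereas they overlapped in both P209L cohorts. Vip at 8 weeks was 18.4, 25.9 and 22.8 TPM in WT and 18.0, 18.2 and 16.0 TPM in P209L mice, and overlapped in both 3-week cohorts. Pvalb differed by -0.10, Lamp5 by -0.07, Reln and Htr3a by -0.06 each, and Nos1 by -0.15 (adjusted p = 0.284).

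Nos1 had its largest difference with the mutation in the R206W cohort, although no difference between cohorts was called. In the R206W cohort it was 24.9, 23.7 and 19.5 TPM in WT and 17.9, 17.0 and 15 TPM in R206W mice, a log2 difference of -0.42 (SE 0.10, adjusted p = 0.207) without overlap. With a replicate block the same difference was called (SE 0.06, adjusted p = 0.0189). In 2 of the 3 same-numbered pairs of that comparison both titles carry the same name prefix, and the labels do not state what the prefix marks. All 3 WT libraries carry that prefix, so it does not tell these pairs from each other. Same-numbered libraries of this comparison correlated at 0.0114 to 0.135 in their deviations from the group mean. At 8 weeks the difference was 0.11 and in the P209L cohort at 3 weeks -0.14. Summed granule cell markers were apart in the R206W cohort, at 455 to 540 TPM in mutants against 606 to 829 TPM in WT. With these markers as a covariate the Nos1 difference averaged over the cohorts changed sign. That fit cannot fully separate the markers from the genotype. The difference between the R206W and the P209L effect at 3 weeks was -0.29 for Nos1 (SE 0.18, adjusted p = 1.0). For no member did limma call a difference in the mutation effect between R206W and P209L at 3 weeks, or between 8 and 3 weeks. No gene at all was called for either (0%), and 0 members had an unadjusted p under 0.05.

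Genes that work with the members were counted from lists of GABA synthesis and transport, interneuron lineage factors, other subtype markers, the perineuronal net, receptors and effectors of the members' signals, and peptide processing. Slc32a1, which loads GABA into synaptic vesicles, rose in mutants by 0.25 (SE 0.04, adjusted p = 0.000702). It was 122, 103 and 108 TPM in WT and 123, 132 and 143 TPM in P209L mice at 8 weeks. In the P209L cohort at 3 weeks it was 128, 117 and 129 TPM in WT and 140, 151 and 142 TPM in mutants, and in the R206W cohort 111, 103 and 120 TPM in WT and 134, 132 and 138 TPM in mutants. The groups did not overlap in any cohort, and how many of all genes were apart in this way was not counted. No other of the 5 genes in that list passed, Gad1 and Gad2, the enzymes that make GABA, differing by -0.18 and 0.05.

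Cort, a peptide gene closely related to Sst and made by part of the same cells, rose by 0.49 (SE 0.07, adjusted p = 0.000126). In the P209L cohort at 3 weeks it was 12.9, 15.7 and 13.1 TPM in WT and 24.1, 20.0 and 25.3 TPM in mutants, and in the R206W cohort 16.7, 15.6 and 18.1 TPM in WT and 25.8, 31.1 and 25.1 TPM in mutants. At 8 weeks WT (10.3, 13.2 and 13.9 TPM) and P209L mice (13.9, 14.6 and 12 TPM) overlapped. Leaving out any of the 18 libraries kept the call of Cort (at most 0.000541 for the adjusted p) and that of Slc32a1 (at most 0.00275). Centred on Gad1, Gad2 and Slc32a1, Cort was at 0.45 (adjusted p = 0.0503). Cort was 1 of 26 other subtype markers called higher, and Kcnc1, a potassium channel of fast-spiking cells, the 1 called lower (-0.17, adjusted p = 0.0484, lost in 14 of 18 omissions).

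Of 17 lineage transcription factors 1 was called, Npas1, higher by 0.23 (adjusted p = 0.0231). Of 7 perineuronal net genes Hapln1, a link protein, was called higher by 0.37 (adjusted p = 0.0284). Of 11 peptide-processing genes Chgb, a granule protein, was called lower, at -0.16 (adjusted p = 0.0339). These 3 calls were lost in 3, 8 and 9 of the 18 omissions. None of the 16 receptors and effectors tested passed by limma, where 4 had an unadjusted p under 0.05. List medians lay between -0.06 and 0.06, and that of the 10 members was -0.07.

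In WT mice the Hnrnph2 ASO gave no member a call by limma, where 0.187% of all genes were called (16 higher and 15 lower, or 13 and 22 after rescaling) and 1 member had an unadjusted p under 0.05. That member was Htr3a, with a log2 difference of 0.20 (SE 0.07, unadjusted p = 0.00925, adjusted p = 0.323). The others lay between -0.07 for Calb2 and 0.06 for Sst. Without the library that stood apart, replicate 3 of this ASO at 3 weeks in the P209L cohort, Sst was at -0.01, Npy at -0.04 and Lamp5 at 0.01, each with the sign turned from 0.06, 0.04 and -0.06.

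In mutants the Hnrnph2 ASO came with higher Htr3a and Vip. Of 10 members 2 were called higher and none lower, where 2.50% of all genes were called, 1.19% higher and 1.31% lower. Among all genes 197 were called higher and 217 lower, and relative to Gad1, Gad2 and Slc32a1 127 and 71. Both genes belong to one broad class of interneurons of caudal ganglionic origin, in which the serotonin channel is a general marker and Vip marks a subclass. Calb2, which labels part of the Vip class, differed by 0.09, Lamp5 by 0.06 and Reln by 0.02, none of them called. A change of the class as a whole was not tested. In both 3-week cohorts no name prefix in the titles occurs with both ASOs, so ASO and prefix cannot be told apart there.

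Htr3a at 8 weeks was 3.33, 3.36 and 3.64 TPM in P209L mice with the control ASO and 4.48, 4.71 and 3.61 TPM with the Hnrnph2 ASO. In the P209L cohort at 3 weeks the mutants had 4.61, 4.38 and 3.70 TPM with the control ASO and 5.6 and 8.48 TPM with the Hnrnph2 ASO. R206W mice had 3.71, 4.14 and 4.62 TPM with the control ASO and 6.18, 5.80 and 5.55 TPM with the Hnrnph2 ASO. The groups were apart in both 3-week cohorts and overlapped at 8 weeks by 1 library. The average log2 difference was 0.42 (SE 0.07, adjusted p = 0.000946), with an exact permutation p of 0.0005, unadjusted. It was kept without any 1 of the 17 libraries, at 0.33 to 0.50. Within cohorts it was 0.24, 0.60 and 0.41 in the same order. No cohort alone gave a member a call by limma, where 0.0908%, 0.0969% and 0.0970% of genes were called and 0, 2 and 2 members had an unadjusted p under 0.05.

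Vip at 8 weeks was 18.0, 18.2 and 16.0 TPM with the control ASO and 19.6, 21.2 and 17.5 TPM with the Hnrnph2 ASO in P209L mice. At 3 weeks P209L mice had 22.4, 18.8 and 19.9 TPM with the control ASO and 22.4 and 30.0 TPM with the Hnrnph2 ASO. R206W mice had 19.2, 18.8 and 23.6 TPM with the control ASO and 27.1, 29.1 and 25.9 TPM with the Hnrnph2 ASO. Only the R206W groups were apart. The average log2 difference was 0.30 (SE 0.07, adjusted p = 0.0187), with an exact permutation p of 0.002, unadjusted, and within cohorts 0.15, 0.34 and 0.40, none called. Without replicate 2 of P209L with the Hnrnph2 ASO at 3 weeks, the library with the highest Vip and Htr3a of all 35, the Vip difference was 0.23 and was not called (adjusted p = 0.157). Relative to Gad1, Gad2 and Slc32a1 it was 0.35 (adjusted p = 0.108).

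Markers of the olfactory bulb, which is rich in interneurons, lay higher in the same comparison without passing. The 6 markers had a median log2 difference of 0.44, all above 0, and 4 had an unadjusted p under 0.05 but none was called (Eomes 0.59, adjusted p = 0.121). Their summed level with the Hnrnph2 against the control ASO was 82.0 to 103 against 36.8 to 83.9 TPM at 8 weeks, 79.9 to 92.2 against 45.1 to 81.8 TPM in the P209L cohort at 3 weeks, and 92.3 to 110 against 54.9 to 84.3 TPM in the R206W cohort. The lowest marker, Tbx21, ranged from 0.09 to 2.52 TPM over the 35 libraries, and the part of that region in the Htr3a and Vip differences was not tested.

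The other 8 members did not pass in mutants with the Hnrnph2 ASO. Cck differed by 0.10 (adjusted p = 0.469), Calb2 by 0.09 (95% interval -0.08 to 0.25) and Lamp5 by 0.06, and Sst, Npy, Pvalb, Reln and Nos1 lay between -0.01 and 0.02. Slc32a1 fell by 0.21 on the log2 scale (-0.21, SE 0.04, adjusted p = 0.0068), a call that stood without any 1 of the 17 libraries, while relative to a mean that includes it (with Gad1 and Gad2) it was at -0.16 (adjusted p = 0.139). It was 124, 109 and 128 TPM in P209L mice with the Hnrnph2 ASO at 8 weeks, 128 and 119 TPM at 3 weeks, and 108, 106 and 121 TPM in R206W mice. Cort fell by 0.28 (adjusted p = 0.0498) and Hapln4, another link protein of perineuronal nets, by 0.26 (adjusted p = 0.0379), and these calls were lost in 12 and 11 of the 17 omissions and without the filter on low genes (adjusted p = 0.101 and 0.0786). The Cort call was also lost with a replicate block (adjusted p = 0.0696), after rescaling (0.0904) and with a pseudocount of 0.1 (0.0553). Each was the 1 gene of its list called, and no lineage factor, receptor or peptide-processing gene passed by limma, where 6, 5 and 4 of them had an unadjusted p under 0.05.

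**Figure D2:**
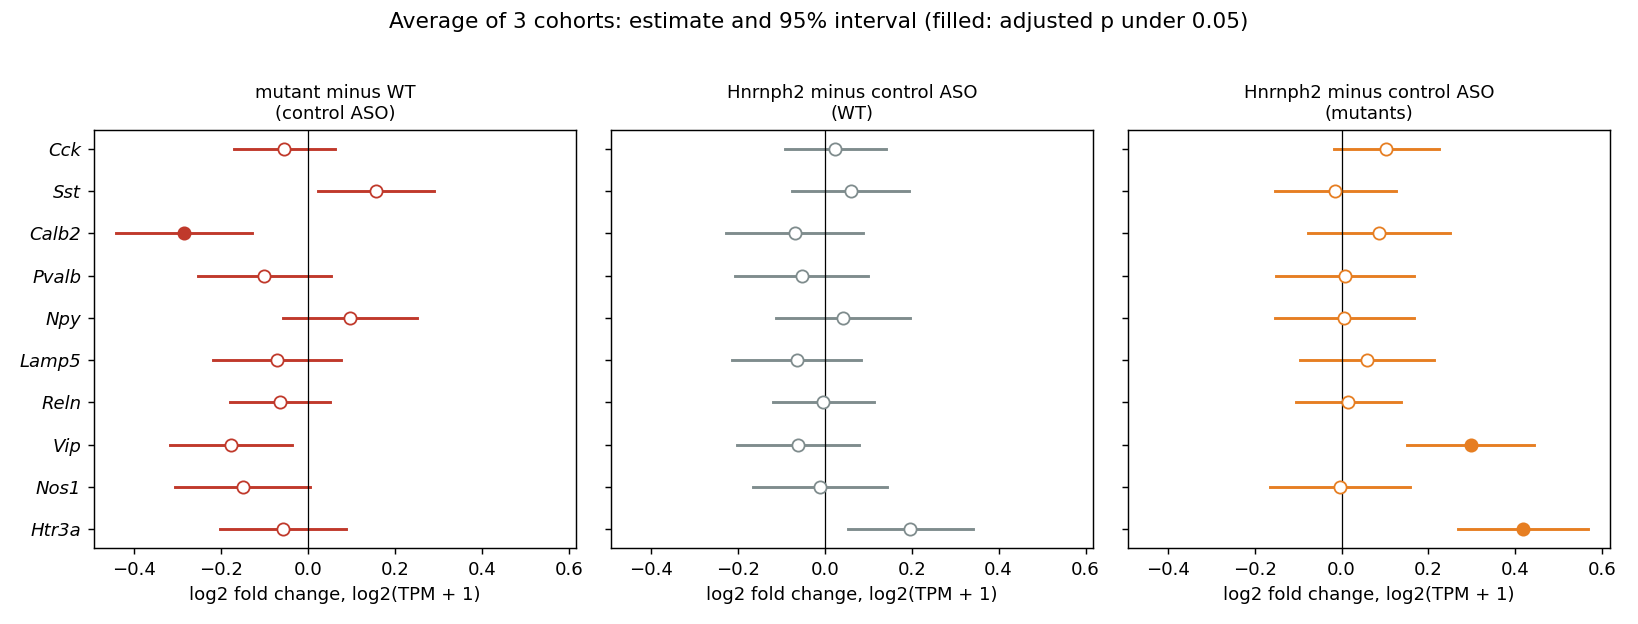
Log2 fold change on log2(TPM + 1) of the 10 genes, averaged over 3 cohorts, for the mutation with the control ASO, the Hnrnph2 ASO in WT and the Hnrnph2 ASO in mutants; bars are 95% intervals and filled points have an adjusted p under 0.05. Calb2 (-0.28) is filled in the first panel, Htr3a (0.42) and Vip (0.30) in the third, and none in the second.

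Whether the ASO acted differently in mutants and WT was tested as the interaction. No member was called by limma, where 0.302% of all genes were called and 2 members had an unadjusted p under 0.05. Vip had a difference of effects of 0.36 (SE 0.10, unadjusted p = 0.00118, adjusted p = 0.188) and Htr3a 0.22 (SE 0.10, unadjusted p = 0.0388, adjusted p = 0.666). The 95% interval for Htr3a ran from 0.01 to 0.43. Slc32a1 was called in the interaction, at -0.27 (adjusted p = 0.0493), close to the threshold. Whether this call holds with libraries left out or under the other settings was not examined.

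Mutants with the Hnrnph2 ASO were also set against WT with the control ASO, a comparison that shares its samples with the ones above. Htr3a was higher by 0.36 (SE 0.07, adjusted p = 0.00406), and it was the only member called, where 4.83% of all genes were called and 2.71% were called higher. Among all genes 448 were called higher and 351 lower, and relative to Gad1, Gad2 and Slc32a1 160 and 38. The exact permutation p of Htr3a was 0.00175, unadjusted. WT with the control ASO had 3.27, 3.63 and 4.48 TPM at 8 weeks, 4.62, 4.07 and 4.66 TPM in the P209L cohort at 3 weeks, and 4.05, 3.99 and 4.50 TPM in the R206W cohort, so the groups were apart in both 3-week cohorts. The call was lost without replicate 2 of P209L with the Hnrnph2 ASO at 3 weeks (0.27, adjusted p = 0.0593) and with the granule cell markers as a covariate (0.27, adjusted p = 0.201). In this comparison 6 of 7 granule markers were called lower, with a median of -0.38, so the fit with that covariate cannot fully separate the markers from the groups. Calb2 was at -0.20 (adjusted p = 0.164), and without replicate 3 of WT with the control ASO at 8 weeks it was called, at -0.28 (adjusted p = 0.00309).

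Age was compared in the P209L cohorts as 8 minus 3 weeks, averaged over the 4 groups, so age cannot be told apart from cohort. Most members were lower at 8 weeks. Calls were made for 7 of 10, 6 lower and 1 higher, where 42.1% of all genes were called, 26.6% lower and 15.5% higher. Of all genes 2571 were called higher and 4396 lower, and after rescaling each library by its median ratio 3656 and 3455.

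Htr3a changed most among the members. It lay at 3.27 to 4.71 TPM at 8 weeks (median 3.64, 12 libraries) and 3.70 to 8.48 TPM at 3 weeks (median 4.66, 11 libraries), a log2 difference of -0.37 (SE 0.06, adjusted p = 2.59e-05). Calb2 had 132 to 250 TPM (median 176) and 183 to 253 TPM (median 213), a difference of -0.29 (SE 0.07, adjusted p = 0.00109). For both genes, in 3 of the 4 groups the ages did not overlap, although the pooled ranges did. How many of all genes were apart in this way was not counted.

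Among the peptide genes, Npy fell by 0.28 (-0.28, SE 0.07, adjusted p = 0.00141), from 163 to 303 TPM at 3 weeks (median 188) to 141 to 192 TPM at 8 weeks (median 161). Vip fell by 0.22 (-0.22, SE 0.06, adjusted p = 0.00429), from 18.8 to 30.0 TPM (median 22.4) to 14.7 to 25.9 TPM (median 18.8). The ranges overlapped for both genes, and the ages did not overlap in 2 of 4 groups for Npy and 3 of 4 for Vip. Sst was called lower by a smaller amount, -0.15 (SE 0.06, adjusted p = 0.0338), and the call was lost after rescaling (-0.11, adjusted p = 0.132) and when any of 9 libraries out of 23 was left out (adjusted p up to 0.0643). At 8 weeks these were replicates 1 and 2 of WT with the control ASO, replicate 1 of WT with the Hnrnph2 ASO and replicate 3 of P209L with it. At 3 weeks they were replicate 1 of WT and of P209L with the control ASO, replicate 3 of WT with the Hnrnph2 ASO (-0.10) and both P209L replicates with it. Cck was at 0.10 (adjusted p = 0.125), and it was called without replicate 3 of P209L with the Hnrnph2 ASO at 8 weeks (0.12, adjusted p = 0.0377) and with the granule markers as a covariate (0.12, adjusted p = 0.0144).

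Reln was called lower at -0.15 (SE 0.05, adjusted p = 0.0187), a call lost after rescaling (-0.10, adjusted p = 0.0932). Lamp5 was the 1 member called higher, at 0.19 (SE 0.06, adjusted p = 0.0211), with 132 to 178 TPM at 8 weeks (median 157) and 88.6 to 155 TPM at 3 weeks (median 140). Without replicate 3 of WT with the Hnrnph2 ASO at 3 weeks, the library at 88.6 TPM, the Lamp5 difference was 0.13 (adjusted p = 0.03). Pvalb was at 0.13 (adjusted p = 0.126) and Nos1 at 0.03 (adjusted p = 0.78), and without replicate 3 of WT with the control ASO at 8 weeks Pvalb was called higher (0.17, adjusted p = 0.0153).

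In WT with the control ASO alone, 3 libraries against 3, no member was called by limma, where 11.4% of all genes were called (457 higher and 1434 lower, or 762 and 971 after rescaling) and 1 member, Calb2, had an unadjusted p under 0.05 (-0.34, adjusted p = 0.103). Without replicate 2 of that group at 8 weeks Calb2 was called. Limma called no gene (0%) for a difference in the age effect by genotype or by ASO, with 0 and 2 members at an unadjusted p under 0.05. The largest such value was for Htr3a, whose age effect with the Hnrnph2 ASO minus that with the control ASO was -0.33 (unadjusted p = 0.0148, adjusted p = 1.0).

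Lineage factors, receptors with effectors, and peptide-processing genes each had more genes called lower than higher with age, against 26.6% lower and 15.5% higher over all genes. After rescaling, which turned the balance over all genes, the genes called lower in these lists were 6 of 17, 3 of 16 (with 1 higher) and 5 of 11. Of 17 lineage transcription factors 7 were called lower, among them Lhx6 (-0.37, adjusted p = 2.48e-05), which specifies the Sst and Pvalb classes, and Npas1 (-0.30). Of 16 receptors and effectors 7 were called lower, with the somatostatin receptors Sstr2 at -0.37 (adjusted p = 0.000429), Sstr1 at -0.46 and Sstr3 at -0.13, and Lrp8, a reelin receptor, at -0.24. Of 11 peptide-processing genes 6 were called lower, led by Cpe, a carboxypeptidase, at -0.34 (adjusted p = 2.05e-06).

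Perineuronal nets, which form around Pvalb cells as the cortex matures, gave 5 of 7 genes lower and 1 higher: Ncan was at -0.69 (adjusted p = 4.48e-10), Hapln1 at -0.75 and Vcan at -0.64, against Hapln4 at 0.67 (adjusted p = 9.76e-10). Of 26 other subtype markers 3 were called higher and 7 lower, with Cort at -0.52 (adjusted p = 5.63e-07) and Kcnc1 at 0.27 (adjusted p = 2.42e-05). Among the GABA genes Slc32a1 was called lower at -0.10 (adjusted p = 0.0379), a call lost after rescaling (-0.05, adjusted p = 0.255). Beside these, 5 of 7 hypothalamic and 3 of 6 Purkinje markers were called higher at 8 weeks and 4 of 9 markers of cortical excitatory neurons lower. All 5 oligodendrocyte markers were called lower (median -1.01), their sum lying at 5512 to 7879 TPM at 8 weeks and 11484 to 15284 TPM at 3 weeks. The part of these cell types in the age differences was not tested.

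The WT mice of the 2 cohorts at 3 weeks were compared with each other as R206W cohort minus P209L cohort, averaged over both ASOs. They were assigned to a cohort from the number series in their titles. Calls were made for 5 members, 4 higher and 1 lower, where 27.1% of all genes were called, 10.9% higher and 16.2% lower. Among all genes 1803 were called higher and 2679 lower, against 12231 and 208 relative to Gad1, Gad2 and Slc32a1, a centring that moved the median of all genes from -0.02 to 0.32. Pvalb lay at 256 to 320 TPM in the 6 WT libraries of the R206W cohort and 161 to 231 TPM in the 6 of the P209L cohort (log2 difference 0.48, SE 0.09, adjusted p = 0.00103). Calb2 lay at 296 to 341 against 213 to 253 TPM (0.42, adjusted p = 0.00296) and Reln at 72.8 to 89.3 against 56.7 to 72.5 TPM (0.34, adjusted p = 0.00175). The ranges of these 3 genes did not overlap, and how many of all genes were apart in this way was not counted.

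Lamp5 was called higher (0.26, adjusted p = 0.0323) and Sst lower (-0.24, adjusted p = 0.0262), with overlapping ranges. Relative to Gad1, Gad2 and Slc32a1 the sign of the Sst difference turned, to 0.10. Both calls were lost without replicate 3 of WT with the Hnrnph2 ASO in the P209L cohort, at 0.14 for Lamp5 (adjusted p = 0.112) and -0.14 for Sst (adjusted p = 0.0833). Each was also lost without replicate 1 of WT with the control ASO in the P209L cohort, and without replicate 2 of either ASO in the R206W cohort. The Lamp5 call was lost, in addition, without replicate 3 of either ASO in the R206W cohort.

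The cerebellar markers differed along with them. All 7 granule cell markers were called higher in the R206W cohort (median 0.61) and 5 of 6 Purkinje markers (median 0.67), such as Pcp2 at 0.79 (adjusted p = 0.000498). The summed granule markers lay at 606 to 829 TPM in the R206W cohort and 388 to 524 TPM in the P209L cohort. Gad1 and Gad2 were lower, at -0.35 (adjusted p = 0.00489) and -0.50 (adjusted p = 0.00322), and 5 of 7 striatal and 5 of 9 cortical excitatory markers were called lower. With the granule markers as a covariate no member and 2 of all genes were called by limma, and Pvalb was at 0.26 (adjusted p = 0.237) and Calb2 at 0.16 (adjusted p = 0.492). The summed markers did not overlap between the cohorts, so this fit has little power for any gene and cannot separate the markers from the cohort. Litter, library series and cohort cannot be told apart here.

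**Figure D3:**
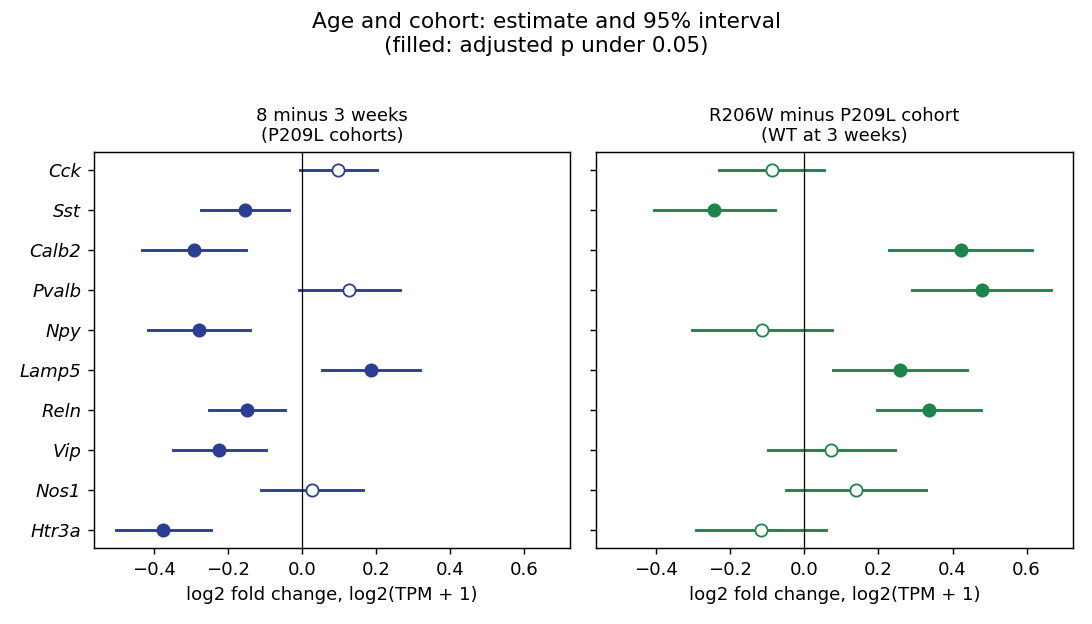
Log2 fold change on log2(TPM + 1) of the 10 genes for 8 minus 3 weeks in the P209L cohorts (left) and for the R206W minus the P209L cohort in WT at 3 weeks (right); bars are 95% intervals and filled points have an adjusted p under 0.05. Age has 7 filled points, of which only Lamp5 (0.19) is above 0, and the cohort difference 5, led by Pvalb (0.48).

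How the members varied together was described from each library's deviation from its group mean on the log2 scale, over 35 libraries that share 12 group means. Pvalb and Calb2 deviated together (r = 0.71, rank correlation 0.46), as did Sst and Npy (r = 0.70, rank correlation 0.44) and Vip and Htr3a (r = 0.60, rank correlation 0.59). For the first 2 of these pairs the rank value was well under r. Nos1 ran against 3 of the 4 peptide genes, with r of -0.69 with Npy, -0.60 with Cck and -0.56 with Vip, and less so against Sst (r = -0.33, rank correlation -0.23). Pvalb and Sst, which mark the 2 main classes of medial ganglionic origin, had an r of -0.16. These values carry no test, since the libraries share tissue makeup and scaling.

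**Figure D4:**
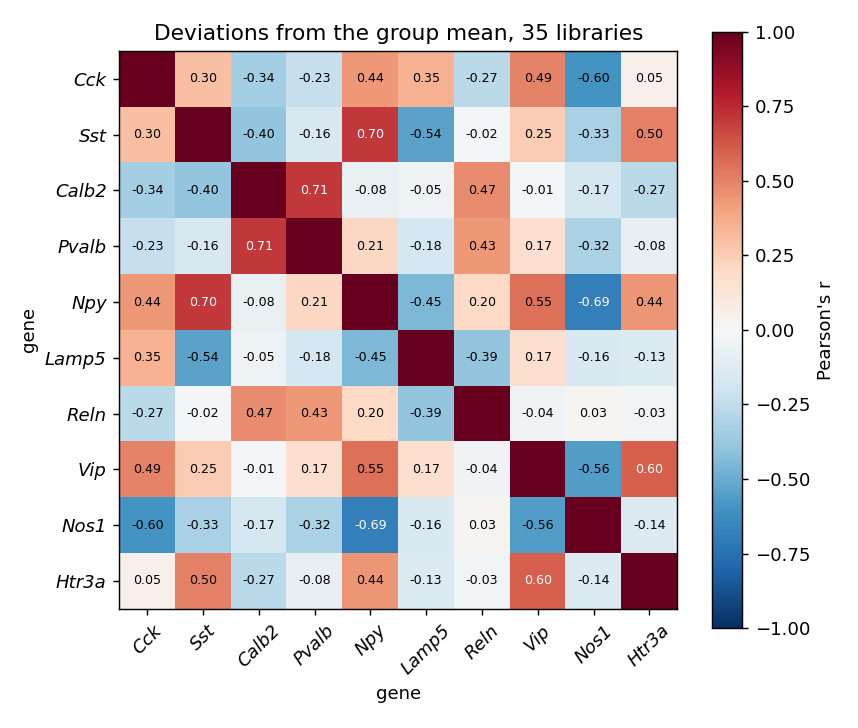
Pearson's r between the 10 genes for deviations of log2(TPM + 1) from the group mean over 35 libraries, from -1 (blue) to 1 (red). The highest value is 0.71 for Pvalb and Calb2 and the lowest -0.69 for Npy and Nos1.

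Over the 16556 genes tested, up to 3 of those closest to each member by the same measure were named, leaving out unnamed gene models. Pvalb was closest to Ppp1r17 (r = 0.90), Lhx1os (r = 0.89) and Pcp2 (r = 0.88), of which Ppp1r17 and Pcp2 are Purkinje cell genes. Calb2 was closest to Csdc2 (r = 0.83), Meis1 (r = 0.82) and Gng5 (r = 0.81). Cck was closest to Sept5 (r = 0.90), Olfm1 (r = 0.86) and Nrgn (r = 0.86), the last a gene of forebrain excitatory neurons.

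Nos1 had the closest neighbours of all members, among them Olfm3 (r = 0.95) and Atp2b3 (r = 0.94). Npy was closest to Jsrp1 (r = 0.89), Atp6v1d and Ube2g2 (r = 0.86 each), and Sst to Bmyc and Psmd7 (r = 0.84 each) and Nucb2 (r = 0.83). Lamp5 was closest to Tmem151a (r = 0.85) and Fabp3-ps1 (r = 0.81), and Htr3a to Edn1 (r = 0.80), Thra (r = 0.77) and Zbtb11os1 (r = 0.76). Among the genes closest to Reln were Zfp57 and Rasa4 (r = 0.78 each). Vip had the weakest neighbours, Camk2n1 (r = 0.70), Wnt10a (r = 0.69) and Snhg12 (r = 0.68).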

How the data were processed

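The authors deposited 1 table of TPM for 35 libraries with 2 decimals, made from stranded total RNA per the labels' protocols. Trim Galore and RSEM, STAR (2.7.1a), GATK (4.0.4.0) and the mm10 build appear in the submitters' processing notes; annotation, filters and strand setting are not given in the sources used here. Read totals cannot be had from TPM: library depth is unknown and no counting error is given. All columns have the same sum, so a few abundant genes (the top 50 held 23.1% to 33.8%) move all others.

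Coordinates came from a RefSeq table of GRCm38. The 16556 genes averaging 1 TPM or more entered limma (3.58.1, under R 4.3.3, eBayes with trend) as log2(TPM + 1), so that fold changes of low genes are understated. Averages, age and cohort contrasts came from 1 fit of all 35 libraries with a mean per group, and values within a cohort from that cohort's fit. The Benjamini-Hochberg adjustment ran over all genes of a contrast, and calls were made at 0.05. Exact permutation tests of the averages over 3 cohorts exchanged labels inside each cohort and can reach 0.00025 at the least. With 3 libraries against 3 they cannot give a p under 0.1. Overlap between groups was read for named genes only and was not counted over all genes. The limma test was tried on simulated data with independent noise for each gene, and the outcome is not given here. That setting leaves out variation in tissue makeup shared between genes, so it gives no error rates for these libraries. Groups came from the labels, the cohort of WT libraries at 3 weeks from their title numbers. In 2 comparisons all same-numbered pairs correlated over 0.1 (lowest 0.123 at 8 weeks and 0.104 in the R206W cohort), both between Hnrnph2 ASO mutants and control ASO WT. There the blocked average for Htr3a was 0.37 (adjusted p = 0.0116), the same call. The alternatives were another pseudocount (0.1), no filter or one at 5 TPM, rescaling, centring on GABA genes, a granule marker covariate, no trend, a replicate block, other sets of libraries in the fit and leaving out each library. All members are named in each contrast, of each list up to 4 genes by smallest p, and the 3 closest genes per member, of which some, with 1 list gene, are not reported here. Members and lists were chosen with earlier results of these data known, and alternatives for companion genes and the cohort difference were added after seeing the data.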

Additional observations from a re-analysis of the deposited data

How the results depend on the processing

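The number of members called moved as follows. For the mutation it was 1, against 0 without the filter on low values and 0 relative to Gad1, Gad2 and Slc32a1, and 0 to 1 with 1 library left out. For the Hnrnph2 ASO in mutants it was 2, against 1 with a filter at 5 TPM (which removes Htr3a from testing) and 1 relative to the GABA genes, and 1 to 2 with 1 library left out. For mutants with the Hnrnph2 ASO against control ASO WT it was 1, against 0 at 5 TPM and 0 with the granule markers as a covariate, and 0 to 2 with 1 library left out. For age it was 7, against 3 relative to the GABA genes, 5 after rescaling, 6 without the filter, 6 at 5 TPM (Htr3a not tested), 8 with the granule covariate (Cck added) and 6 to 8 with 1 library left out, and in control ASO WT alone 0 to 1 with 1 library left out. For the cohort difference it was 5, against 3 without the filter, 8 relative to the GABA genes and 0 with the granule covariate, and 3 to 5 with 1 library left out. In the R206W cohort alone the mutation had 0 members called, against 2 with a replicate block (Calb2 and Nos1, both lower), and the ASO in mutants 0 to 1, where Vip was called without replicate 3 of R206W with the control ASO. The replicate block moved no other count of members called. Some same-numbered libraries also share a name prefix in their titles, as do some with different numbers, and the labels do not state its meaning. The causes were not tested.

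With the granule markers as a covariate these uncalled log2 differences changed sign. For the mutation they were Npy -0.056, Pvalb 0.014, Reln 0.016 and Nos1 0.034, while Cck was then called (-0.21, adjusted p = 0.0449). For the ASO in WT they were Npy -0.00053, Cck -0.018, Reln 0.019 and Nos1 0.041, in mutants Npy -0.027 and Nos1 0.038, in the interaction Nos1 -0.0027, and for age Nos1 -0.0018. For mutants with the Hnrnph2 ASO against WT they were Sst -0.0083, Npy -0.083, Pvalb 0.048, Cck -0.14, Reln 0.050 and Nos1 0.072. Relative to the GABA genes, signs changed for Sst -0.022, Npy -0.040 and Cck -0.057 (ASO in WT), Sst 0.033 and Nos1 0.045 (ASO in mutants), Sst 0.055 and Npy 0.095 (interaction), and Sst 0.10 in the cohort difference, where it was -0.24 and called. With the replicate block Sst was 0.0028 (ASO in mutants) and Nos1 -0.014 (interaction).

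With 1 library left out, uncalled values spanned 0 as follows. In the ASO effect in WT, Sst ran from -0.011 to 0.098, Npy from -0.040 to 0.087, Pvalb from -0.12 to 0.0056, Cck from -0.0079 to 0.047, Reln from -0.036 to 0.028, Lamp5 from -0.12 to 0.011 and Nos1 from -0.059 to 0.027. In the ASO effect in mutants, Sst ran from -0.036 to 0.010, Npy from -0.021 to 0.041, Pvalb from -0.029 to 0.034, Reln from -0.0089 to 0.050 and Nos1 from -0.042 to 0.041. In the interaction, Npy ran from -0.080 to 0.046, Reln from -0.012 to 0.053 and Nos1 from -0.032 to 0.056. Lamp5 ran from -0.038 to 0.017 for mutants with the Hnrnph2 ASO against WT, and Nos1 from -0.0032 to 0.062 for age.

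Relative to the GABA genes the age calls of Sst (adjusted p = 0.134), Reln (0.247), Vip (0.116) and Lamp5 (0.11) were lost, and without the filter that of Sst (0.0697). Counts over all genes fell relative to the GABA genes to 186 for the mutation, 8 for the ASO in WT, 198 in mutants, 10 in the interaction, 198 for mutants with the Hnrnph2 ASO against WT and 512 for age in control ASO WT, and rose to 12439 for the cohort difference. That centring moved the median of all genes to 0.115 in the interaction. With the granule covariate they were 342 for the mutation, 155 for mutants with the Hnrnph2 ASO against WT and 2 for the cohort difference, and with the replicate block 53 for the ASO in WT. Leaving out replicate 3 of control ASO WT at 8 weeks raised the count for the mutation from 708 to 1164. Leaving out replicate 2 of P209L with the Hnrnph2 ASO at 3 weeks lowered it to 73 higher and 136 lower for the ASO in mutants and to 223 in all for Hnrnph2 ASO mutants against WT. In that last comparison it was 487 without replicate 2 of control ASO WT and 499 without replicate 2 of Hnrnph2 ASO R206W, both of the R206W cohort. For the cohort difference it was 2979 without replicate 1 of control ASO WT in the P209L cohort and 2685 without replicate 2 of control ASO WT in the R206W cohort. Depth is unknown, so no limit of detection can be given, and 3 libraries a group limit each cohort alone.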
